A study of Homo sapiens with 4 samples.

Results

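The genes described here encode the constitutive proteasome, its assembly factors and its activators in Hey-A8, an ovarian cancer cell line. They were taken from the gene count table as protein-coding rows whose symbol belongs to the PSMA, PSMB (constitutive members), PSMC, PSMD, PSME, PSMF and PSMG series, which gave 44 of 58735 genes. The core particle has 14 of them and the regulatory particle 17, and the other 13 are assembly factors, activators, an inhibitor and a germ cell subunit. The series compares 2 libraries of cells with a scrambled control hairpin (shCON) with 2 libraries of cells with a hairpin directed at SPTLC2 (shSPTLC2), all from the same line grown in serum-containing medium. The labels describe a stable knockdown in one place, and in another a transient transfection of plasmids with hairpins against ZDHHC15 and harvest after 36 h. The groups follow the sample titles. Nothing in the labels says that replicates are separate cultures, so p-values measure only the spread between these libraries.

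The proteasome is the protease that degrades most proteins tagged with ubiquitin. Its core particle is a barrel of alpha rings, which gate the entrance, around beta rings, which carry the active sites. The regulatory particle caps the barrel. Its base holds ATPases that unfold substrates and its lid holds the enzyme that removes ubiquitin. Chaperones that do not stay in the finished enzyme assemble both particles. When proteasome capacity runs short, the transcription factor NFE2L1 is known to raise the transcription of many of these genes together.

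Libraries held 14464800 to 15085000 counts (rounded to 6 digits). The hairpin's labelled target SPTLC2 went from 871 and 884 counts to 587 and 662, a log2 fold change of -0.52 ± 0.12 (SE; edgeR adjusted p = 0.0063). It was not called once shSPTLC2 replicate 1 (edgeR adjusted p = 0.13) or replicate 2 (0.052) was left out. ZDHHC15 had 0 counts in each library, where a count of 0 allows up to 0.195 to 0.206 CPM, the count scaled to library size. Genes of the mitochondrial genome took 5.46% and 6.39% of counts in shCON and 10.1% and 8.56% in shSPTLC2. The keratins KRT7, KRT8 and KRT18 and the Müllerian factor PAX8 were abundant, whereas the epithelial cadherin CDH1 had 0 counts, MUC16 at most 1 and EPCAM 3 to 10. The keratin KRT19 had 18 to 23 counts and WT1 99 to 154. PAX8 was called higher in shSPTLC2 (log2 fold change 0.73 ± 0.11, edgeR adjusted p = 4.4e-04). Of 9 markers of other cell types, the leukocyte, erythroid and stromal genes PTPRC, CD3E, CD68, HBB, DCN and LUM had at most 2 counts in any library. The summed level of the 9 was 59.6 and 57.3 CPM in shCON and 109.7 and 132 in shSPTLC2, mostly from the endothelial cadherin gene CDH5 (848 and 804 counts against 1598 and 2000; 1.09 ± 0.12, edgeR adjusted p = 3.7e-05). PECAM1, the other endothelial gene listed, fell from 31 and 27 to 6 and 12 counts (-1.71 ± 0.46, edgeR adjusted p = 0.018, up to 0.21 in the alternatives), and the pericyte gene PDGFRB had 5 to 11 counts and was not tested. The part of the mitochondrial share and of these markers in the results below was not tested. With mitochondrial genes left out, the count of proteasome genes called lower was still 19.

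Transcripts of the proteasome's structural subunits were lower in shSPTLC2 almost throughout, the median change over the 31 subunits being -20.7%. Of the 43 proteasome genes with counts, 19 were called lower, 1 was called higher and 23 were not called (edgeR quasi-likelihood test, adjusted p under 0.05 over 15313 genes). Across all tested genes 9.00% were called lower and 10.4% higher, and among abundant coding genes (mean 50 CPM or more) 15.9% were called lower. The median log2 fold change of the 43 was -0.30, against 0.00 for all tested genes and -0.08 for abundant coding genes. The fold change was below 0 for 39 of the 43, as it was for 49.5% of all tested genes and 60.5% of abundant coding genes. Both shSPTLC2 libraries lay below both shCON libraries for 34 of the 43. They did so for 30.2% of all tested genes and for 1798 of 4269 abundant coding genes. Just 2 of the 43, PSMC1 and PSMD7, had a decrease of more than 1.5-fold, and most changes were small. Other genes share 75.8% of the exon bases of PSMC1 and 30.7% of those of PSMD7. Of the 33 tested genes with under 10% shared exon bases, 0 fell by more than 1.5-fold. Without shSPTLC2 replicate 1 there was 1 lower call (PSMC1) and without shSPTLC2 replicate 2 there were 4 (PSMB1, PSMC1, PSMD1 and PSMD7), while the median stayed at -0.31 and -0.29. The share of all tested genes called lower dropped as well in these fits, to 1.41% and 2.49%, whereas without a shCON library 20 or 21 proteasome genes were called lower. With library totals in place of TMM scaling 11 genes were called lower, where 6.75% of all tested genes were, and the median was -0.24 against 0.06 for all tested genes. The 8 calls lost there were PSMA5, PSMB2, PSMB5, PSMB6, PSMB7, PSMC3, PSMD3 and PSMG1.

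**Figure D1:**
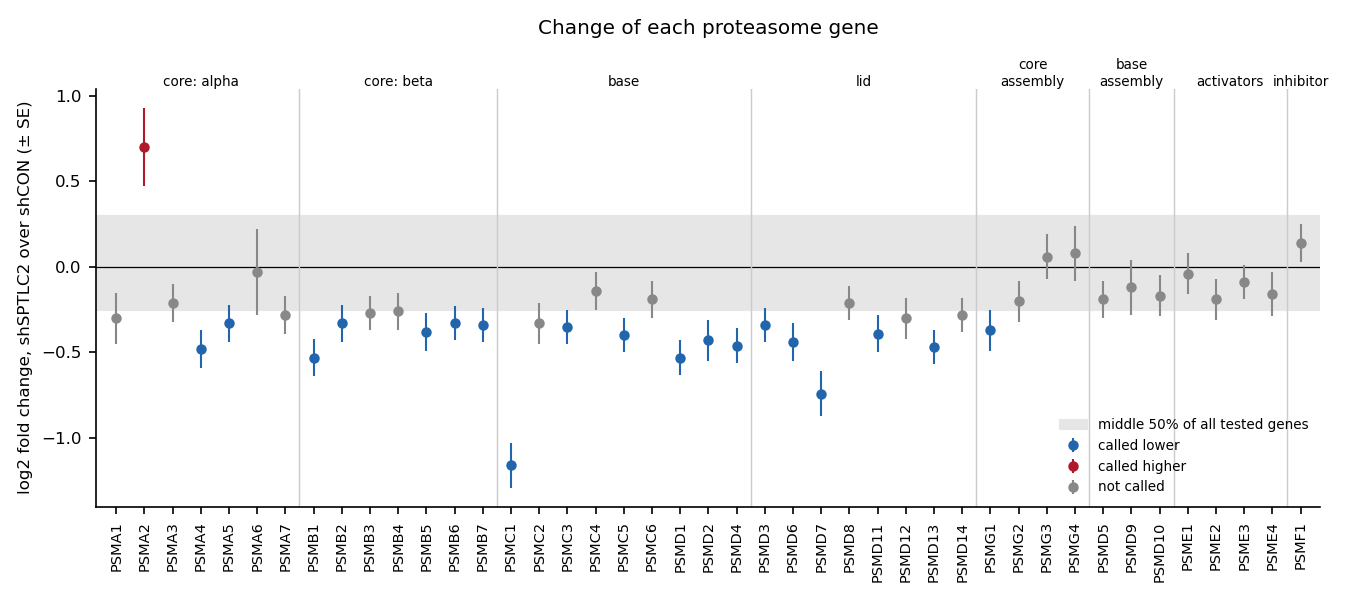
Log2 fold change of each of the 43 tested proteasome genes, shSPTLC2 over shCON, with its standard error, grouped by place in the complex. The grey band spans the middle 50% of all tested genes (-0.25 to 0.30). All points of the beta ring, regulatory base, lid, base assembly factors and activators lie below 0.

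The genes differed widely in level. On the per-length scale of the deposited FPKM, PSMD2, a scaffold of the base, had 282 and 253 FPKM in shCON and 188 and 207 in shSPTLC2. PSMA7, an alpha ring subunit, had 243 and 255 FPKM in shCON and 210.2 and 197 in shSPTLC2. These 2 genes had the highest levels, and their order differed between the groups: the mean was higher for PSMD2 in shCON (268 against 249 FPKM) and for PSMA7 in shSPTLC2 (204 against 198 FPKM), with overlapping libraries in both. PSMB7 followed with 196 and 201 FPKM in shCON and 152 and 159 in shSPTLC2. Subunits that occur in equal numbers in the finished enzyme were thus listed at very different FPKM, down to 0.797 and 0.682 FPKM in the lowest library of PSMA2 and PSMA6. The length behind each FPKM is the union of all annotated exons of the gene, so genes with long alternative exons are divided by more than the length of their main transcript. All 44 genes together took 0.704% and 0.677% of counts in shCON and 0.563% and 0.572% in shSPTLC2. PSMA8, which replaces an alpha subunit in germ cells, was without a count in any library, an observation that 0.206 CPM or less would also give.

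**Figure D2:**
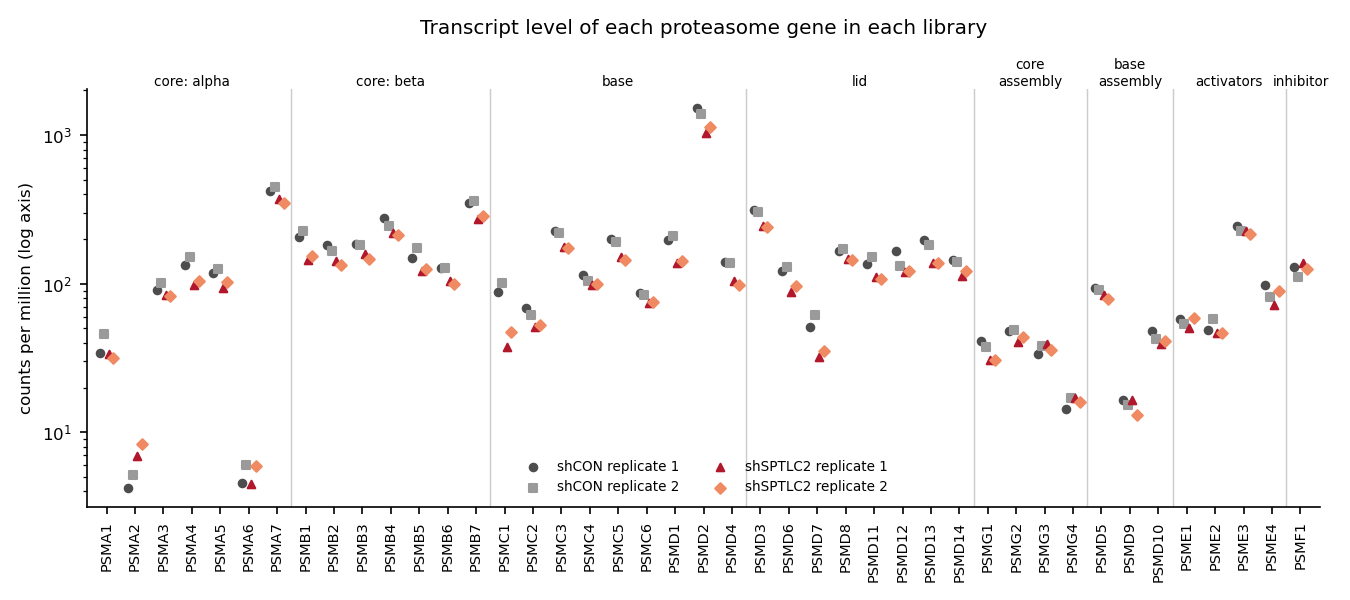
Level of the 43 proteasome genes with counts, in CPM on a log axis, with a point for each library. PSMD2 stands highest, at 1037 to 1532 CPM, and PSMA2 and PSMA6 lowest, at 4.24 to 8.32 CPM.

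In the alpha ring, 2 of 7 genes fell, 1 rose and 4 were not called, with a median log2 fold change of -0.28. Of all tested genes 9.00% were called lower and 10.4% higher. PSMA4 had 134 and 150.4 CPM in shCON and 98.7 and 104 CPM in shSPTLC2, a log2 fold change of -0.48 ± 0.11 (SE; edgeR adjusted p = 0.0064). The groups did not overlap for PSMA4, and the gap between them was larger than the spread within either. PSMA5 fell by less, from 119 and 125 to 93.3 and 102 CPM (-0.33 ± 0.11, edgeR adjusted p = 0.043). PSMA7, the most abundant alpha gene, had -0.28 ± 0.11 (edgeR adjusted p = 0.076) and PSMA3 -0.21 ± 0.11 (0.2), with shSPTLC2 below shCON in each library of both genes. PSMA1 had 34.3 and 46.2 CPM in shCON and 33.9 and 31.6 CPM in shSPTLC2, so that shCON replicate 2 alone stood apart (-0.30 ± 0.15, edgeR adjusted p = 0.16, and -0.07 without that library). PSMA2 was the one gene called higher, from 4.24 and 5.14 to 6.92 and 8.32 CPM (0.70 ± 0.23, edgeR adjusted p = 0.043), on 63 to 128 counts a library. No alpha gene was called (0 of 7) without either shSPTLC2 library, where the 3 calls had an edgeR adjusted p of 0.12 to 0.36 (replicate 1 left out) and 0.063 to 0.28 (replicate 2 left out). PSMA2 was also not called without shCON replicate 1 (0.12), nor PSMA5 without shCON replicate 2 (0.053).

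In the beta ring, 5 of 7 genes fell (9.00% of all tested genes) and 2 were not called, with a median of -0.33. The 3 genes with active sites moved by similar amounts. PSMB5, which carries the chymotrypsin-like site and is the main target of proteasome inhibitor drugs, had 148 and 175 CPM in shCON and 122 and 126 CPM in shSPTLC2 (-0.38 ± 0.11, edgeR adjusted p = 0.025). PSMB6, with the caspase-like site, had 127 and 128 CPM in shCON and 105 and 98.9 CPM in shSPTLC2 (-0.33 ± 0.10, edgeR adjusted p = 0.038). PSMB7, with the trypsin-like site, had 349 and 360.3 CPM in shCON and 274 and 285 CPM in shSPTLC2 (-0.34 ± 0.10, edgeR adjusted p = 0.03). In none of these 3 did the groups overlap, but for PSMB5 the shCON libraries differed from each other by more than the gap between the groups. Among the structural beta genes, PSMB1 changed most, from 206 and 226 to 144 and 154 CPM (-0.53 ± 0.11, edgeR adjusted p = 0.0029). PSMB2 fell from 182 and 167 to 143 and 133 CPM (-0.33 ± 0.11, edgeR adjusted p = 0.037). PSMB3 (-0.27 ± 0.10, edgeR adjusted p = 0.084) and PSMB4 (-0.26 ± 0.11, 0.093) were not called. All 7 beta genes had both shSPTLC2 libraries below both shCON libraries, as did 30.2% of all tested genes. So did 1798 of 4269 abundant coding genes. Without shSPTLC2 replicate 1 none of the 7 was called (0 calls; PSMB1 had an edgeR adjusted p of 0.1), and without shSPTLC2 replicate 2 just PSMB1 was (0.04). PSMB5 was also not called without shCON replicate 2 (0.077), and PSMB1 alone was called with library totals as the scale.

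In the base of the regulatory particle, 6 of 9 genes fell (9.00% of all tested genes) and 3 were not called. The median was -0.40, and the groups overlapped for none of the 9. Both shSPTLC2 libraries were the lower ones in all 9, as for 30.2% of all tested genes and 1798 of 4269 abundant coding genes. PSMC1, an ATPase of the ring that unfolds substrates (hg38 chromosome 14, 90256495 to 90275429), showed the largest change of any proteasome gene. It had 1314 and 1476 counts, or 88.4 and 101 CPM, in shCON and 554 and 723 counts, or 37.6 and 47.0 CPM, in shSPTLC2, a decrease of 55.3% (log2 -1.16 ± 0.13, edgeR adjusted p = 4.8e-05). It was called in each of the 13 alternatives, with adjusted p from 2.1e-21 to 0.0097. The other 5 ATPase genes moved much less: PSMC3 (-0.35 ± 0.10) and PSMC5 (-0.40 ± 0.10) fell, and PSMC2 (-0.33 ± 0.12), PSMC6 (-0.19 ± 0.11) and PSMC4 (-0.14 ± 0.11) were not called. PSMC4 had 114 and 105 CPM in shCON and 98.5 and 99.0 CPM in shSPTLC2, the smallest change in the base.

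The non-ATPase genes of the base all fell. PSMD1, a scaffold that binds other ubiquitin-handling factors, had 198 and 208 CPM in shCON and 138 and 142 CPM in shSPTLC2 (-0.53 ± 0.10, edgeR adjusted p = 0.0024). PSMD2, the other scaffold, had 1532 and 1389 CPM in shCON and 1037 and 1135 CPM in shSPTLC2 (-0.43 ± 0.12, edgeR adjusted p = 0.018). PSMD4, a ubiquitin receptor, had 141 and 139 CPM in shCON and 105 and 98.4 CPM in shSPTLC2 (-0.46 ± 0.10, edgeR adjusted p = 0.0068). In each of the 3 the drop between groups exceeded the difference between replicates. PSMC1 was the only base gene called without shSPTLC2 replicate 1, and PSMC1 and PSMD1 (adjusted p = 0.045 in edgeR) were called without shSPTLC2 replicate 2. The edgeR adjusted p of the other base calls then reached 0.27 and 0.21.

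In the lid, 5 of 8 genes fell (9.00% of all tested genes) and 3 were not called, with a median of -0.37. Again no gene had overlapping groups, and both shSPTLC2 libraries were the lower ones, as for 30.2% of all tested genes. The same held for 1798 of 4269 abundant coding genes. PSMD7, the inactive partner of the deubiquitinase, changed most. It had 51.1 and 62.0 CPM in shCON and 32.3 and 35.2 CPM in shSPTLC2 (-0.74 ± 0.13, edgeR adjusted p = 0.0014). PSMD13 fell from 198 and 183 to 139 and 137 CPM (-0.47 ± 0.10, edgeR adjusted p = 0.0059). PSMD6 (-0.44 ± 0.11), PSMD11 (-0.39 ± 0.11) and PSMD3 (-0.34 ± 0.10) fell too, with edgeR adjusted p of 0.011, 0.018 and 0.028. PSMD14, the deubiquitinase that strips ubiquitin from substrates, had 144 and 140.0 CPM in shCON and 113 and 121 CPM in shSPTLC2 and was not called (-0.28 ± 0.10, edgeR adjusted p = 0.075). PSMD12 (-0.30 ± 0.12) and PSMD8 (-0.21 ± 0.10) were not called. In PSMD12, shCON replicate 1 (166 CPM) stood above shCON replicate 2 (132 CPM), and the shSPTLC2 libraries had 120.3 and 121 CPM. No lid gene was called without shSPTLC2 replicate 1 (0 of 8; PSMD7 had an edgeR adjusted p of 0.06) and PSMD7 alone was called without shSPTLC2 replicate 2 (0.017).

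The core and the regulatory particle were compared as wholes, without a p-value since the genes form a chosen list. Of the 14 core genes 7 fell and 1 rose, and of the 17 regulatory genes 11 fell. Of all tested genes 9.00% were called lower. The median log2 fold change was -0.31 in the core and -0.39 in the regulatory particle. This difference of 0.08 was about the size of the spread of the same quantity over libraries (SD 0.07). The difference was 0.02 among the 11 core and 13 regulatory genes with under 10% of exon bases shared with another gene. Measured against the shCON mean, the median of the alpha genes was -0.24 and -0.27 in the shSPTLC2 libraries, that of the beta genes -0.29 and -0.35, that of the base -0.36 and -0.36 and that of the lid -0.35 and -0.36. All 4 layers were thus lowered in both shSPTLC2 libraries. Summed FPKM of the regulatory particle over that of the core was 0.780 and 0.724 in shCON and 0.700 and 0.734 in shSPTLC2, and the groups overlapped. Without PSMD2, which contributes most to the sum, the ratio was 0.525 and 0.500 in shCON and 0.490 and 0.500 in shSPTLC2. A shift in the balance of the particles was not detectable in these libraries.

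**Figure D3:**
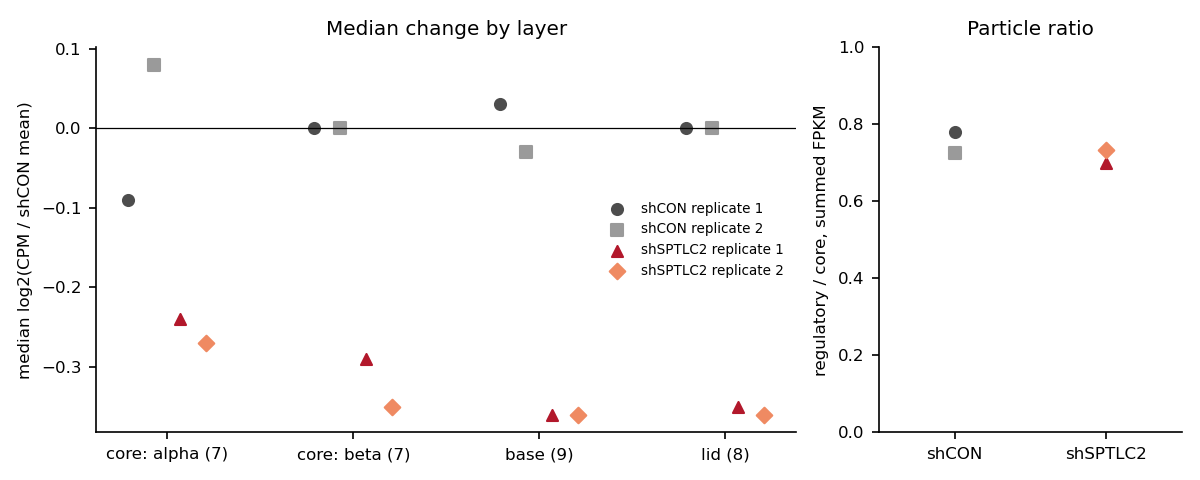
Left, median over the genes of each layer of log2 CPM relative to the shCON mean, with a point for each library and the number of genes in brackets. Right, summed FPKM of the regulatory particle divided by that of the core in each library. All layers lie at -0.24 or lower in shSPTLC2, while the particle ratios of the groups overlap.

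Fewer genes outside the core and regulatory particles were called. Of the 12 with counts, 1 fell and 11 were not called, with a median of -0.14, against 18 of 31 that fell and a median of -0.33 for the structural subunits. The difference between these sets was not tested. The 12 genes were also less abundant (median 47.7 against 129.5 CPM), and 9.00% of all tested genes were called lower. The part of level in the number of calls was not tested. Among the chaperones that build the core, PSMG1 fell from 41.0 and 37.8 to 30.5 and 30.6 CPM (-0.37 ± 0.12, edgeR adjusted p = 0.049), a call that ended without shCON replicate 1 (0.099) and without shSPTLC2 replicate 1 (0.26) or replicate 2 (0.22). Its dimer partner PSMG2 had -0.20 ± 0.12, and the other pair, PSMG3 and PSMG4, had 0.06 ± 0.13 and 0.08 ± 0.16 with overlapping groups. The chaperones of the base, PSMD5 (-0.19 ± 0.11), PSMD9 (-0.12 ± 0.16) and PSMD10 (-0.17 ± 0.12), were not called (0 of 3). None of the 4 activator genes was called (0 of 4). These were the interferon-inducible cap genes PSME1 (-0.04 ± 0.12) and PSME2 (-0.19 ± 0.12), the nuclear cap gene PSME3 (-0.09 ± 0.10) and PSME4 (-0.16 ± 0.13), which encodes a cap that opens the core without ATP. PSME3, the most abundant of them, had 245 and 227 CPM in shCON and 227 and 217 CPM in shSPTLC2. PSMF1, which encodes a protein that inhibits the core in vitro, had 129 and 110.5 CPM in shCON and 137 and 126 CPM in shSPTLC2 (0.14 ± 0.11), with overlapping groups.

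Reads that fall on exons of more than 1 gene bear on several of these values, because the sources used here do not give the counting program or how it treated strand. NRDE2, on the opposite strand, shares 75.8% of the exon bases of PSMC1, and NRDE2 itself fell from 472 and 414 to 239 and 228 counts (-0.95 ± 0.14, edgeR adjusted p = 3.7e-04). Unless strand was used in counting, reads of PSMC1 and NRDE2 cannot be told apart over that stretch. The stretch covers 82.1% of the main coding transcript of PSMC1. A processed copy of PSMC1 elsewhere in the genome, PSMC1P1, had 62 and 62 counts in shCON and 35 and 46 in shSPTLC2 and was not called (-0.65 ± 0.28, edgeR adjusted p = 0.12). For PSMD7, 30.7% of exon bases, and 50.4% of the main coding transcript, are shared with the opposite-strand transcript AC009120.2. The log2 fold change of AC009120.2 was 0.68 ± 0.25 (edgeR adjusted p = 0.072). PSMC5 shares 19.5% with FTSJ3, which fell too (-0.49 ± 0.12, edgeR adjusted p = 0.0089). The FTSJ3 call ended without shSPTLC2 replicate 1 (0.14) and replicate 2 (0.092).

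Partners of proteasome genes that were not called changed as well. SPIRE1, which shares 2.74% of the exon bases of PSMG2, fell (-0.67 ± 0.12, edgeR adjusted p = 0.0013), as did RNF31 (-0.54 ± 0.14, 0.014), which overlaps PSME2 by 6.03%, and BECN1 (-0.46 ± 0.11, 0.011), which overlaps PSME3 by 5.82%. SLC22A23, which overlaps PSMG4 by 13.3%, rose on 18 to 51 counts (1.16 ± 0.35, edgeR adjusted p = 0.029). Without shSPTLC2 replicate 1 the edgeR adjusted p was 0.061 for SPIRE1, 0.13 for RNF31, 0.22 for BECN1 and 0.23 for SLC22A23. Without shSPTLC2 replicate 2 it was 0.018, 0.11, 0.045 and 0.086, and without shCON replicate 1 it was 0.086 for SLC22A23. The remaining partners and copies were not called: SIRT3, beside PSMD13, had 0.37 ± 0.16, PSMA3-AS1 0.40 ± 0.14, PSMG3-AS1 0.28 ± 0.23, EMC9, beside PSME1, 0.24 ± 0.18, and PSMA6P1 -0.34 ± 0.51. MRPL32 beside PSMA2 (0.08), WDR66 beside PSMD9 (0.02), CEP76 beside PSMG2 (0.06), TUBB2B beside PSMG4 (-0.12) and AL121594.1 (0.38) had overlapping groups.

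The alpha genes with very low counts, PSMA2 and PSMA6, lie inside annotated readthrough genes. So does PSMA1, which had 486 to 675 counts. In PSMA6, 81.0% of the main coding transcript is shared with other genes, foremost the readthrough gene AL121594.1, which had 4 to 11 counts. In PSMA2 the share is 54.1%, and the readthrough gene AC010132.3 had 0, 0, 2 and 0 counts. In PSMA1 the share is 53.2% and the readthrough gene AC018523.2 had 0 counts in all 4 libraries. PSMA2 and PSMA6 had 63 to 128 counts against 5331 to 6543 for PSMA7, which shares no exon bases, and the PSMA2 call rests on these few reads. The part of shared exons in the low counts was not tested. Among the 33 tested genes with under 10% shared exon bases, 15 fell (9.00% of all tested genes), 0 rose and the median was -0.30. Pseudogene copies of the proteasome genes took few reads: 13 of 32 had counts, 67 to 91 in all per library.

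The genes that work beside the proteasome were followed in a list of 41 found in the table, of which 40 were tested. Of these 8 fell, 1 rose and 31 were not called, with a median of -0.17. Calls of lower were 9.00% of all tested genes and 15.9% of abundant coding genes, whose median was -0.08, so that 8 of 40 is close to the abundant genes' share. The largest decrease was in SQSTM1, which encodes the p62 receptor that takes ubiquitin-tagged cargo to autophagy. SQSTM1 had 14122 and 14327 counts in shCON and 6884 and 7608 in shSPTLC2 (-1.01 ± 0.11, edgeR adjusted p = 3.7e-05), and it was called in each of the 13 alternatives. VCP, the ATPase that extracts tagged proteins from complexes and membranes, fell from 523 ± 44.6 to 339 ± 19.5 CPM (SD, n = 2; -0.62 ± 0.11 in edgeR). The polyubiquitin gene UBB fell (-0.39 ± 0.11). RPS27A, which encodes ubiquitin fused to a ribosomal protein, was not called (-0.32 ± 0.13, edgeR adjusted p = 0.082).

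NFE2L1, the transcription factor that controls proteasome genes, had 6540 and 8563 counts in shCON and 4805 and 5447 in shSPTLC2. It fell by 0.59 ± 0.13 on the log2 scale (edgeR adjusted p = 0.0053), and the shCON libraries differed from each other by more than the shSPTLC2 libraries did. Of the genes that process NFE2L1, the protease gene DDI2 (0.20 ± 0.13) and the glycanase gene NGLY1 (-0.15 ± 0.13) were not called. Of the remaining structural subunit genes, SEM1 fell (-0.50 ± 0.15, edgeR adjusted p = 0.033) and the ubiquitin receptor gene ADRM1 was not called (-0.25 ± 0.10, 0.11). POMP, the maturation factor of the core, was not called (-0.18 ± 0.11). After an offset for GC content, ADRM1 (-0.52, edgeR adjusted p = 0.0032) and POMP (-0.38, 0.033) were called and SEM1 (-0.47, 0.05) was not. With the replicate number added as a block, SEM1 was called too (edgeR adjusted p = 0.025). UBE3C (-0.38 ± 0.11), a ligase that acts at the proteasome, ECPAS (-0.43 ± 0.11), a proteasome adaptor, and PITHD1 (-0.51 ± 0.13), a protein that binds proteasomes, fell. UBA6, an alternative ubiquitin-activating enzyme, rose from 73.1 ± 17.0 to 102 ± 7.38 CPM (SD, n = 2; 0.48 ± 0.14, edgeR adjusted p = 0.027).

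The catalytic subunits that interferon swaps into the core were low in both groups. PSMB8 had 295 and 232 counts in shCON and 274 and 308 in shSPTLC2 (0.11 ± 0.15), and PSMB9 had 45 and 36 against 41 and 72 (0.44 ± 0.32). PSMB10 had 85 and 114 counts in shCON and 69 and 68 in shSPTLC2 (-0.57 ± 0.24, edgeR adjusted p = 0.11). None of the 3 was called (0 of 3), although PSMB10 was after an offset for GC content (-0.77, edgeR adjusted p = 0.038). No test compared the 3 with the constitutive genes. Of the list's calls, SQSTM1 alone held without shSPTLC2 replicate 1, and SQSTM1 and VCP (edgeR adjusted p = 0.025) held without shSPTLC2 replicate 2. NFE2L1 had an edgeR adjusted p of 0.14 and 0.055 in these fits. SEM1 and UBA6 were also not called without shCON replicate 2 (0.3 and 0.11).

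**Figure D4:**
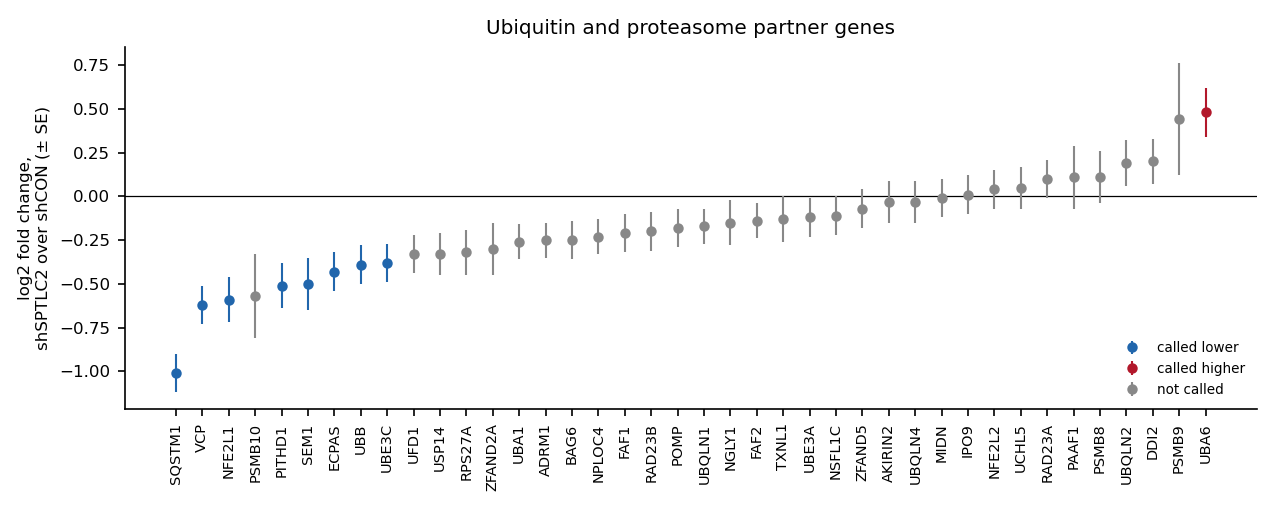
Log2 fold change with standard error of the 40 tested genes that work beside the proteasome, ordered by size. SQSTM1 lies lowest at -1.01 and UBA6, the gene called higher, at 0.48.

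NFE2L1 is known to bind antioxidant response elements, so the 250 bases before the RefSeq start site were searched for their core, TGACNNNGC, on both strands. RefSeq (GRCh38.p14) windows were found for 38 of the 44 genes, 46 windows in all. The core occurred in 26.1% of these windows, against 11.2% of windows of coding genes and 10.9% of all 35116 windows. The 6 matches that lie clear of annotated exons are shown, with the match in capitals on the strand of the gene, since they give the context in which this shared letter pattern sits. None of the 13 matches overlapped a match of another motif searched (0 of 13).
PSMB3, chr17:38752622-38752660, plus strand: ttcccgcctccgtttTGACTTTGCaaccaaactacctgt
PSMD3, chr17:39980755-39980793, plus strand: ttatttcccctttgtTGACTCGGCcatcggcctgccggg
PSMD12, chr17:67366719-67366757, minus strand: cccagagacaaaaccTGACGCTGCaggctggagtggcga
PSME1, chr14:24136093-24136131, plus strand: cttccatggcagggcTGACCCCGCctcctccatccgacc
PSMD9, chr12:121888626-121888664, plus strand: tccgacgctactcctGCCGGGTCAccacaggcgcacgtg
PSMD9, chr12:121888673-121888711, plus strand: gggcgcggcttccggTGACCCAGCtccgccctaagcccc
The matches start 104 bases before the start site in PSMB3, 37 in PSMD3, 165 in PSMD12, 86 in PSME1 and 149 and 102 in PSMD9, and the first PSMD9 match is on the reverse strand. The other genes with a match were PSMA4, PSMC5, PSMD5, PSME2, PSME4, PSMG1 and PSMG2.

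The median decrease was not larger among the genes with this pattern. The 6 genes without a window are left out of the counts that follow. Of the 12 tested genes with a match 4 fell (median -0.23), and of the 25 with a window but no match 11 fell (median -0.30), a difference that was not tested. Of the windows shown, PSMD3 belongs to a gene that fell, while PSMB3, PSMD12, PSMD9 and PSME1 were not called. The CCAAT box (CCAAT) was in 37.0% of the proteasome windows and 32.7% of coding windows, the ETS core (CCGGAA) in 39.1% and 18.1%, the GC box (GGGCGG) in 65.2% and 54.4%, and the heat shock core (GAANNTTC) in 0% and 4.87%. Of 17 tested genes with a CCAAT box 9 fell (median -0.33), and of 20 without 6 fell (median -0.20). For the ETS core these were 7 of 17 (median -0.30) and 8 of 20 (-0.27), and for the GC box 11 of 25 (-0.30) and 4 of 12 (-0.24). None of these splits was tested, and 9.00% of all tested genes were called lower. A match is a run of letters and not a site shown to be bound in these cells.

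Position and base composition were also set beside the changes. The genes lie on many chromosomes, most often on 14 and 17 with 7 each, of which 2 and 4 fell. Of all tested genes 9.00% were called lower. When all tested coding genes were put into 5 equal bins by GC content, calls of lower were least frequent in the top bin (4.78% at 58.4 to 74.8% GC) and most frequent in the middle bin (14.3% at 46.3 to 52.0% GC). Of the tested proteasome genes 1 lay in the top bin, and it was not called (PSMG3). In the middle bin 5 of 12 fell, in the bin above it (52.0 to 58.4%) 7 of 12, where 11.4% of coding genes did, in the bin below it 5 of 9 (13.7%) and in the lowest bin 2 of 9 (6.74%). Across the 43 genes the correlation of log2 fold change with GC content was 0.02 (Pearson) and 0.03 (Spearman), and with log2 mean CPM it was -0.45 and -0.44. These are descriptions over genes that share 4 libraries. After an offset for GC content 17 genes were called lower, the median being -0.27, and 9.91% of all tested genes were called lower. PSMB2, PSMB7 and PSMG1 were then not called (edgeR adjusted p = 0.079, 0.073 and 0.096), while PSMD14 was (-0.38, edgeR adjusted p = 0.016).

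The number of proteasome genes called lower was 17 to 21 in the remaining alternatives. It was 19 with DESeq2's size factors (9.25% of all tested genes), 19 with limma (8.95%) and 20 with no filter on low counts (5.35% of 30392 genes). With DESeq2's Wald test it was 17, and PSMA5, PSMG1 and PSMA2 were not called. The share called lower by that test was 3.31% of 30392 genes, a base that includes genes without an adjusted p and so lowers the share. With mitochondrial genes left out, 9.11% of all tested genes were called lower. Without shCON replicate 1 it was 20 (12.6%) and without shCON replicate 2 it was 21 (9.69%).

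**Figure D5:**
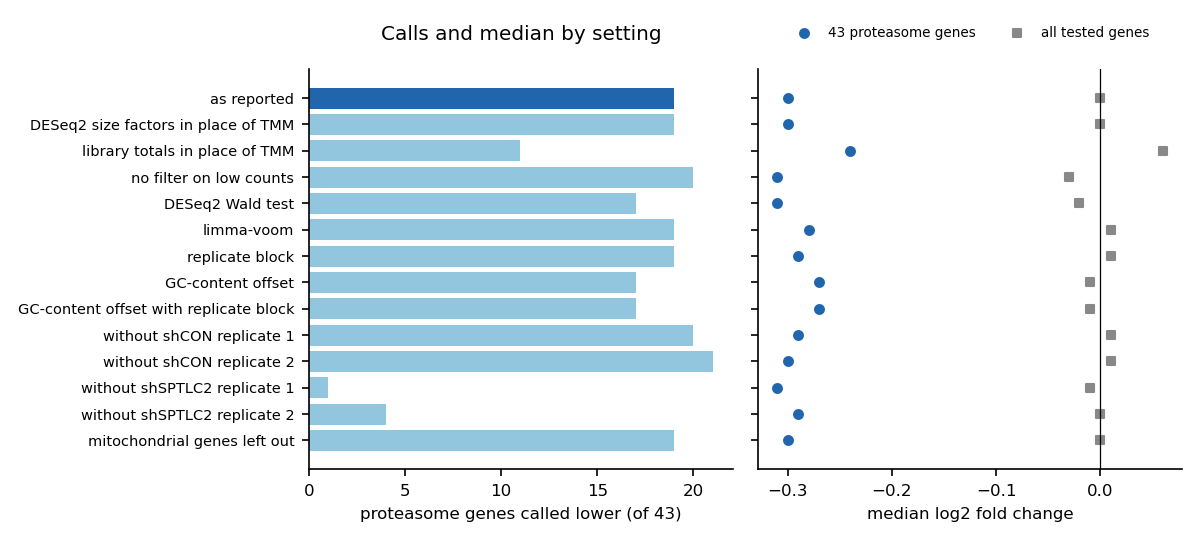
Left, number of the 43 proteasome genes called lower as reported and under each alternative. Right, median log2 fold change of the 43 genes (circles) and of all tested genes (squares). The median stays between -0.31 and -0.24, while the number of calls is 1 and 4 when a shSPTLC2 library is left out.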

How the data were processed

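RNA of 4 Hey-A8 libraries was analysed from gene tables. Per the submitters' processing notes HISAT2, StringTie, SAMtools and hg38 were used; the counting program is not given in the sources used here. The deposited counts are raw whole-number read counts per gene. The deposited FPKM equal, by their values, the count divided by the gene length and scaled by a factor per library. All 58735 gene IDs, positions and lengths matched GENCODE 29, which gave exon sharing and transcript GC content. The main coding transcript of a gene was the longest with the APPRIS principal tag, or the longest coding one where none had it. Whether it is the main form in these cells was not tested. Counts were compared in R 4.3.3 with edgeR 4.0.16 (filterByExpr with minimum count 10 and total 15, TMM, robust quasi-likelihood F test, two-sided, no covariates) with Benjamini-Hochberg adjustment over 15313 genes; a call is an adjusted p under 0.05. CPM use TMM-scaled library sizes. Standard errors (SE) divide the absolute log2 fold change by √F. Intervals allowed by 3 counts cover counting error only.

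Alternatives used DESeq2 1.42.0 and limma 3.58.1. The scripts were tested on simulated data: with 14996 genes drawn from the means and sizes of these libraries, the share of seeded changes found by edgeR was 0% at 1.25-fold, 34% at 1.5-fold, 62% at 2-fold and, for 4-fold, 90%. The simulated data gave 95 calls over genes of all levels, against 2971 calls in the real libraries. The p cutoff was thus stricter in the simulation, and these shares need not hold for the proteasome genes. The chi-square p was under 0.05 for 37.4% (shCON) and 28.7% (shSPTLC2) of genes between replicates, so neither pair is a library deposited more than once. The genes, lists and alternatives were chosen with earlier results of these data known. Named were all proteasome genes, SPTLC2, the list genes that were called plus 7 fixed ones (NFE2L1, ADRM1, SEM1, POMP, PSMB8, PSMB9 and PSMB10), and overlapping or copied genes with at least 5% of a gene's counts; other list, overlapping and marker genes named were chosen after their values were seen. The lists were proteasome partners and markers of ovarian carcinoma, mesenchymal state and other cell types. Of the markers, 6 of 9 carcinoma genes were tested (1 higher, 0 lower), 3 of 3 mesenchymal (0 and 0) and 2 of 9 of other types (CDH5 higher, PECAM1 lower). Some genes of these lists are not reported here and were left out of their counts.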

Additional observations from a re-analysis of the deposited data

How the results depend on the processing

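The number of proteasome genes called lower was 11 with library totals, 17 to 20 under the other scalings, filter, tests, GC offset and mitochondrial setting, and 1 to 21 when a library was left out (20 and 21 without a shCON library, 1 and 4 without a shSPTLC2 library); the cause was not tested. All 19 genes called lower kept a negative log2 fold change in each of the 13 fits. The number called higher was 0 with DESeq2, 0 among genes with under 10% shared exons, which leaves out PSMA2, and 0 to 1 when a library was left out. The core minus regulatory median was 0.03 to 0.13 when a library was left out and 0.02 among genes with little sharing, a setting that, like the mitochondrial one, was chosen after seeing the data. With the replicate number as a block, 19 genes were called lower and 1 higher, where 10.0% of all tested genes were called lower. With the GC offset and the replicate block these were 17 and 1, where 10.4% of all tested genes were called lower. Deviations of libraries with the same number had a correlation of -0.013 over genes. No shared shift was thus seen, but this value cannot tell whether libraries with the same number were prepared together. Some genes that were not called changed sign: PSME1 (0.02 with library totals), PSMA6 (0.03 with library totals and 0.02 with the GC offset, also with the block) and PSMG3 (-0.06 with the GC offset, also with the block). With a library left out the log2 fold change ran from -0.15 to 0.07 for PSME1, -0.24 to 0.18 for PSMA6, -0.04 to 0.15 for PSMG3, -0.04 to 0.20 for PSMG4, -0.29 to 0.03 for PSMD9, -0.05 to 0.27 for PSMB8, -0.19 to 1.27 for AL121594.1, -0.08 to 0.21 for CEP76, -0.03 to 0.18 for MRPL32, -0.95 to 0.66 for TUBB2B and -0.08 to 0.11 for WDR66. Of 1.5-fold changes simulated over genes of all levels, 34% were found, a share that need not hold for the proteasome genes.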
